A study of Mus musculus with 6 samples.

Results

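The genes described here are 10 genes of iron handling and of ferroptosis, a form of cell death driven by iron and by peroxidised membrane lipids. They were chosen by name in the deposited gene table, which lists 54532 genes, and all 10 were found there: Aifm2, Gpx4, Acsl4, Slc7a11, Tfrc, Fth1, Ftl1, Slc40a1, Ncoa4 and Hmox1. Their expression was measured by RNA-seq at 12 weeks of age in 3 WT and 3 Mc4r KO hearts, with a library for each mouse. Mc4r encodes the melanocortin-4 receptor, a receptor of hypothalamic neurons that restrains food intake, and mice without it become obese. The Mc4r KO mice were homozygous for a knockout carried in the whole body, the WT mice were their littermates from matings of heterozygous parents, and all were males on the C57B/6/N background. The tissue is named heart in the source and tissue labels and muscle in the sample titles, and left ventricle in the study's text. The study set out to describe the myocardium of young Mc4r KO mice before cardiac function declines.

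Cells take up transferrin-bound iron through the transferrin receptor, keep the surplus inside the ferritin shell, release it again when ferritin is carried to lysosomes, and export it through ferroportin. The iron regulatory proteins adjust this traffic by binding a short hairpin in the messenger RNAs of these genes, the iron-responsive element. Ferroptosis starts where iron oxidises polyunsaturated phospholipids. ACSL4 supplies these lipids, and 2 arms oppose the reaction: glutathione with the selenoenzyme GPX4, and reduced coenzyme Q10 kept up by FSP1, the product of Aifm2. The heart holds much iron in its mitochondria and in myoglobin.

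The values are FPKM, which are corrected for gene length and scaled by library, so that levels of different genes can be compared. Values of the hearts of a group are given in the order of replicates 1, 2 and 3. The median over genes of the ratio to their geometric mean over the libraries was 1.0058 in each of the 6 libraries. The deposited values were therefore already on a common scale for the typical gene, although their sums differed. The libraries held 14691076 to 16047003 reads on genes, and for a gene of 1 kb an FPKM of 0.176 to 0.213 stood for 3 reads. Mc4r itself had 2 reads in WT replicate 3 and none in the other 5 libraries, which is under the floor of 3 reads, so the genotype could not be checked from its transcript. The markers of cardiomyocytes were abundant in all libraries, with Actc1, the cardiac actin, as the highest of them.

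WT replicate 3 stood apart. Its summed FPKM of 8 atrial markers was 873, against 46.8 and 117 in the other WT libraries. It was 161, 22.6 and 68.3 in Mc4r KO hearts. Nppa, the most abundant of them, was at 314 in WT replicate 3 and between 5.40 and 80.9 in the other libraries. Over the genes tested, WT replicate 3 correlated with Mc4r KO replicates 1, 2 and 3 at r = 0.954, 0.947 and 0.946. Its correlations with WT replicates 1 and 2 were lower, at 0.939 and 0.945. Leaving out WT replicate 3 therefore removes the WT library that is most like the Mc4r KO libraries. Red cell transcripts also differed. The summed erythroid markers reached 4534, 885 and 6383 in WT hearts and 1680, 691 and 649 in Mc4r KO hearts, with the globin Hbb-bs as the most abundant. The share of the total FPKM that came from the mitochondrial chromosome was 59.3%, 57.4% and 47.1% in WT and 43.6%, 46.5% and 43.0% in Mc4r KO hearts. The endothelial markers, with Cdh5 as the most abundant, summed to 312, 340 and 312 in WT hearts and 381, 368 and 322 in Mc4r KO hearts, which overlapped. The adipocyte markers, with Fabp4 as the most abundant, summed to 153, 177 and 139 against 190.0, 192 and 189, which did not. Of these 10 markers 3 had no reads and 4 were tested, with 2 higher and 1 lower at an unadjusted p under 0.05 (20.9% of all genes stood there). Their median log2 fold change was 0.35, but -0.21 over 7 of them with no filter on low values. Results are therefore also given for some of the genes and lists without WT replicate 3, and with the libraries scaled to their sum outside the mitochondrial chromosome (the outside-mitochondrial scaling). This scaling moved the median over all genes tested by -0.18 on the log2 scale, from -0.01 to -0.19. The typical gene was thus centred before this scaling and not after it, and the fold changes under it are read relative to that. Values of single list genes are from the main analysis unless another is named.

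**Figure D1:**
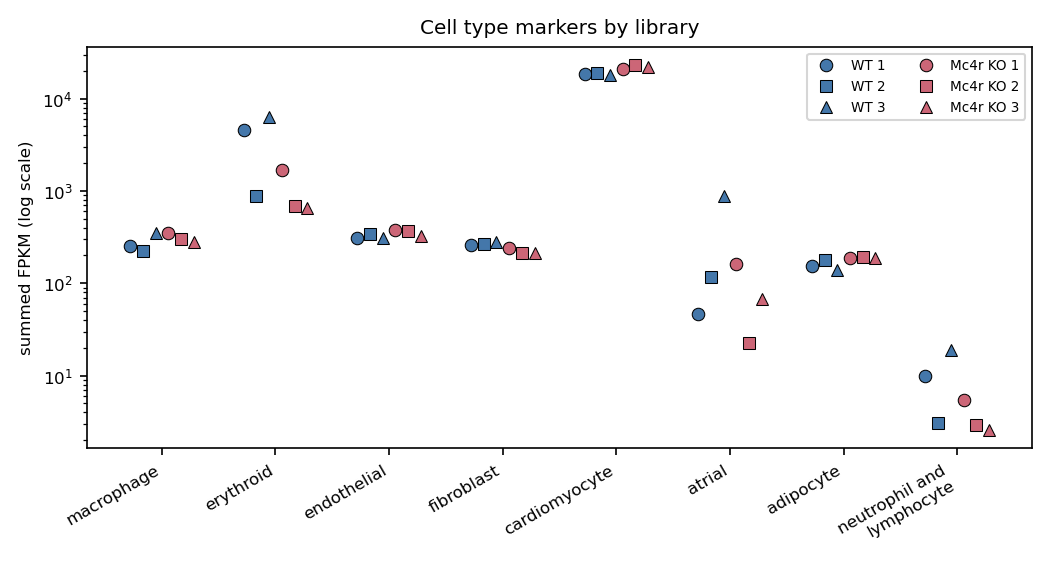
Summed FPKM (log scale) of 8 lists of cell type markers, with 1 point per library, WT in blue and Mc4r KO in red, and the replicate number as the shape of the point. The atrial sum of WT replicate 3 (873) and the erythroid sums of WT replicates 1 and 3 (4534 and 6383) lie far above the other libraries, whereas the cardiomyocyte sums lie between 17920 and 23020.

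Of the 10 genes, 9 had a mean FPKM of at least 0.1 and were tested with limma, and 0 of them passed both thresholds for a call, which were 0.05 for the adjusted p and 0.75 for the size of the log2 fold change. Across all 18035 genes tested, 83 passed, which is 0.46%. The closest was Aifm2, at a 1.68-fold higher level in Mc4r KO mice. Its log2 fold change of 0.747 and its adjusted p of 0.0579 each just missed their threshold. It passed both thresholds with limma voom on the recovered reads, with array weights and when WT replicate 3 was left out. At an unadjusted p under 0.05 stood 3 of the 9 (33.3%), against 20.9% of all genes tested. They were Aifm2 and Tfrc on the higher side, where 12.0% of all genes stood, and Acsl4 on the lower side, where 8.83% stood. The count depended on the scaling: under the outside-mitochondrial scaling it was 5 of 9, 2 higher and 3 lower, with Ftl1 and Slc40a1 added, against 23.1% of all genes (892 higher and 3266 lower). With the GC percentage as a covariate it was 2 of 9, without Tfrc, against 11.3%. The GC percentage that the study lists was higher in each Mc4r KO library than in each WT library. Effects of this covariate and of genotype therefore cannot be told apart, here and in the counts of the lists below. The libraries of the groups did not overlap for Aifm2, Acsl4 and Fth1 (3 of 9, 33.3%), against 26.4% of all genes. The median log2 fold change of the 9 genes was -0.04, beside -0.01 over all genes tested. These are bulk samples, so that fewer cells of a type and less RNA per cell cannot be told apart, and the p-values measure the spread between individual mice.

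**Figure D2:**
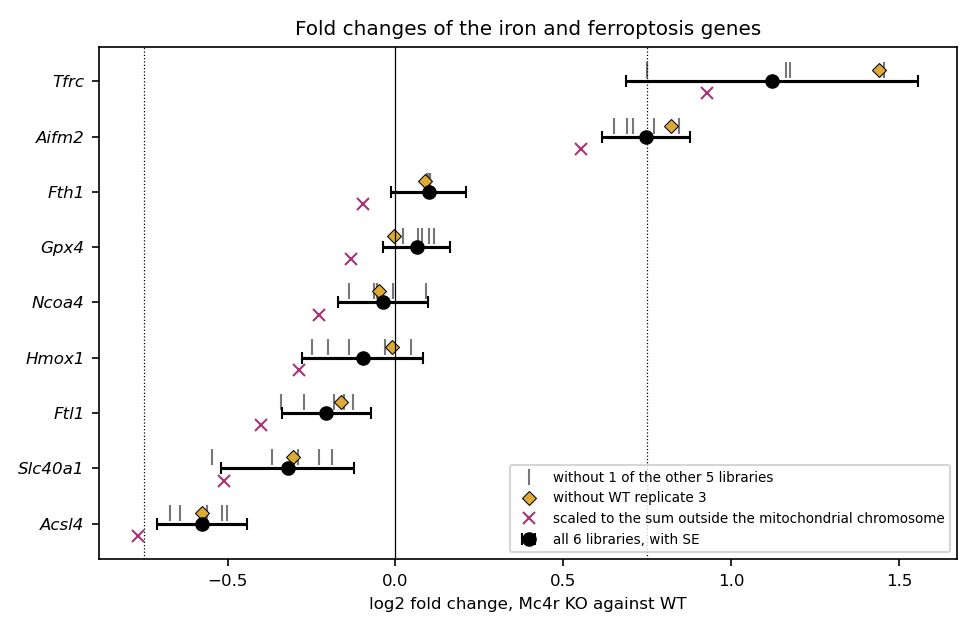
Log2 fold change of the 9 tested genes in Mc4r KO against WT mice (black points, with SE as bars), with the fits that leave out 1 library (grey ticks, and orange diamonds for WT replicate 3) and the fit scaled to the sum outside the mitochondrial chromosome (crosses). The dotted lines mark the fold threshold of 0.75 in each direction. Tfrc (1.12) and Aifm2 (0.747, just under the threshold) lie highest and Acsl4 (-0.58) lowest, and the crosses lie to the left for each gene.

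In WT hearts the levels fell into distinct ranges. Fth1, the heavy chain of ferritin, was the most abundant at an FPKM of 1326 ± 14.6 (SD, n = 3), followed by Gpx4 at 243 ± 20.3 and Ftl1, the ferritin light chain, at 85.8 ± 6.79. None of these overlapped with its neighbour in the order. The next were Tfrc at 8.93 ± 4.03, Aifm2 at 5.97 ± 0.707, Hmox1 at 5.64 ± 0.996 and Ncoa4 at 4.93 ± 0.176, and each overlapped with the next. Acsl4 at 3.67 ± 0.326 lay below Ncoa4 without overlap, and it overlapped with Slc40a1 at 3.42 ± 0.201. Slc7a11 was last. In Mc4r KO hearts Aifm2 at 10.1 ± 1.16 lay above Hmox1 at 5.27 ± 0.919 without overlap, and Slc40a1 at 2.79 ± 0.828 and Acsl4 at 2.44 ± 0.311 overlapped in exchanged order.

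**Figure D3:**
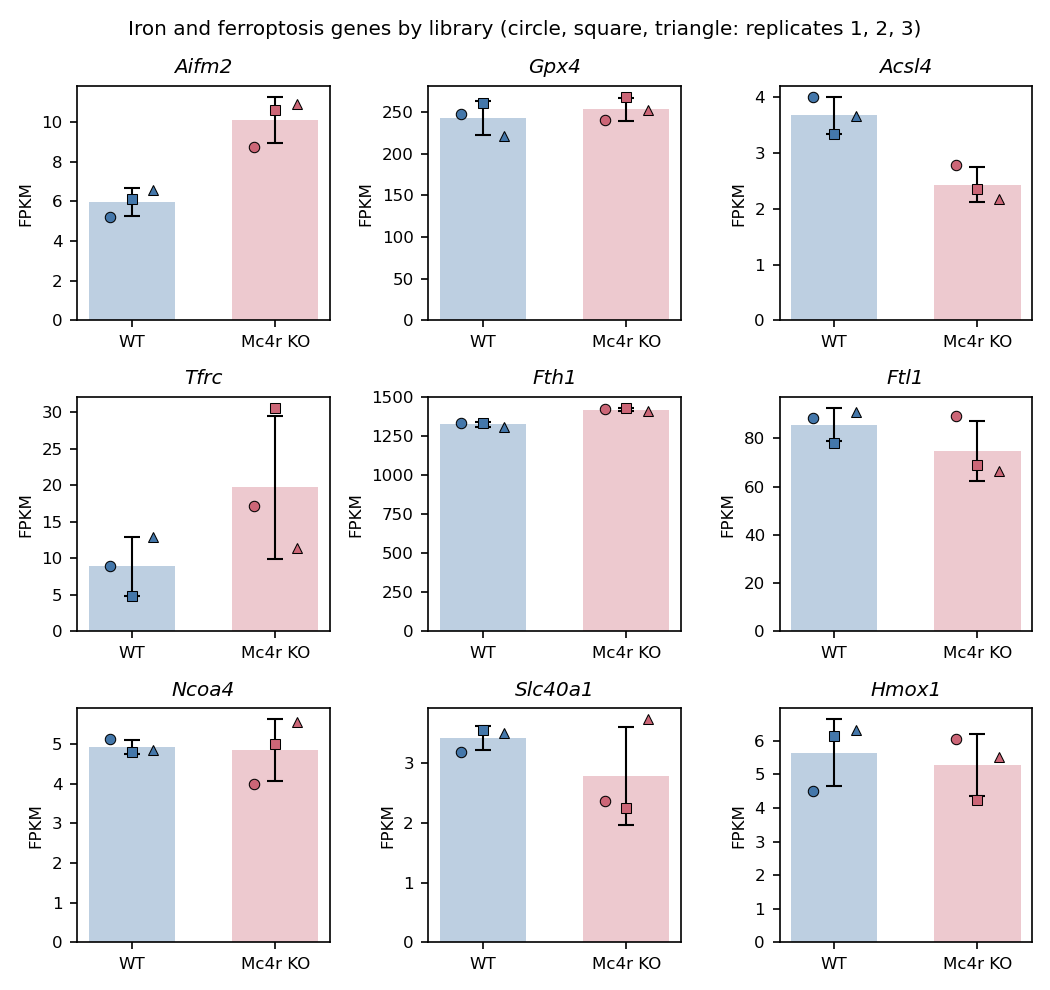
FPKM of each of the 9 tested genes (linear axes that start at 0), with 1 point per library, bars for the group means and error bars for the SD of 3 mice. The points of the groups are apart for Aifm2 (5.20 to 6.58 against 8.75 to 10.9), Acsl4 (3.35 to 4.002 against 2.17 to 2.78) and Fth1 (1309 to 1334 against 1409 to 1428), and they overlap for the other 6 genes.

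Aifm2 encodes FSP1, the oxidoreductase that keeps coenzyme Q10 reduced in membranes and so stops lipid peroxidation without glutathione. The gene lies on chromosome 10 from 61715263 to 61739260 (GRCm38, plus strand). Its FPKM was 5.20, 6.13 and 6.58 in WT hearts, from 302, 363 and 462 reads. In Mc4r KO hearts it was 8.75, 10.6 and 10.9, from 560, 665 and 720 reads. Each Mc4r KO library was above each WT library, and WT replicate 3 was the highest of its group. The log2 fold change was 0.747 ± 0.13 (SE), with a p of 0.000646 and an adjusted p of 0.0579, and the exact permutation test gave 0.1, the smallest p that 3 mice against 3 allow. Without WT replicate 3 it was 0.82 with an adjusted p of 0.0215, and with each of the other 5 libraries left out in turn the adjusted p was between 0.111 and 0.217. Under the outside-mitochondrial scaling it was 0.55. Exons of H2afy2 on the opposite strand cover 5.65% of the Aifm2 exons, and whether strand was used in the counting is not given in the sources used here. The summed cardiomyocyte markers were also higher in each Mc4r KO library, at 21100, 23020 and 22270 against 18310, 18840 and 17920 in the WT libraries, and their part in the Aifm2 difference was not tested. At an unadjusted p under 0.05, 4 of these 15 markers were higher and 0 lower (26.7%, against 20.9% of all genes), with a median of 0.14. Under the outside-mitochondrial scaling 1 was higher and 2 lower (against 23.1% of all genes), with a median of -0.06. The counts were 7 and 2 without WT replicate 3 (against 28.2% of all genes). They were 1 and 0 without Mc4r KO replicate 3 (against 15.7%).

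The genes whose levels followed Aifm2 most closely over the 6 libraries, out of 11297 genes whose mean FPKM reached 1, were Ccdc9b, Ryr2, Gpsm1, Clptm1 and Slc31a1. Pearson's r of log2 values was between 0.996 and 0.998, as a description over 6 points that share the difference between the groups. Ryr2, the calcium release channel of the cardiomyocyte, was at 44.5, 48.6 and 51.6 in WT hearts and at 59.5, 67.6 and 66.4 in Mc4r KO hearts. Ccdc9b was at 6.35, 7.46 and 7.57 against 9.72, 11.8 and 12.1. The log2 fold changes of these 5 genes ranged from 0.20 for Clptm1 to 0.64 for Ccdc9b, all smaller than that of Aifm2.

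Gpx4, the selenoenzyme that reduces lipid hydroperoxides at the cost of glutathione, lies on chromosome 10 from 80047166 to 80056439 on the plus strand. Its FPKM was 247, 261 and 221 in WT hearts and 241, 268 and 252 in Mc4r KO hearts, with 6012 to 7017 reads in each. The groups overlapped throughout, and the log2 fold change was 0.06 ± 0.10 (SE, adjusted p = 0.76). Its sign turned under 3 alternatives, with values of -0.16 after quantile normalization, -0.13 under the outside-mitochondrial scaling and -0.0039 without WT replicate 3. Words of 50 bases shared with other genes made up 34.7% of its transcripts, and the copy in the table took between 893 and 1139 reads, so the level of Gpx4 is uncertain. The ratio of Aifm2 to Gpx4 within a library was 0.0210, 0.0235 and 0.0298 in WT and 0.0364, 0.0396 and 0.0432 in Mc4r KO mice. The ratios did not overlap, with a difference of 0.69 on the log2 scale (exact permutation p = 0.1, adjusted p = 0.2 over 2 ratios).

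Slc7a11 supplies cystine for glutathione and is the target of the ferroptosis inducer erastin. It lies on chromosome 3 from 49892526 to 50443614 on the minus strand and had 1, 1 and 2 reads in WT hearts and 1, 0 and 1 in Mc4r KO hearts. No library exceeded the floor of 3 reads, so no fold is given and a difference was not detectable at this depth. Its partner chain Slc3a2, which also serves other amino acid transporters, was at an FPKM between 7.58 and 11.7 in all 6 libraries.

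Acsl4 activates arachidonic and adrenic acid for the phospholipids on which ferroptosis depends. It lies on the X chromosome from 142317993 to 142390535 on the minus strand. The FPKM was 4.002, 3.35 and 3.67 in the WT libraries, from 305, 260 and 338 reads, and 2.78, 2.36 and 2.17 in Mc4r KO hearts, from 233, 194 and 188 reads. Each Mc4r KO library was below each WT library, although the gap between the nearest of them was smaller than the range of each group. The log2 fold change was -0.58 ± 0.13 (SE, p = 0.00334, adjusted p = 0.0949, exact permutation p = 0.1), and over the 19 alternatives it ranged from -0.77 (outside-mitochondrial scaling) to -0.45 with adjusted p between 0.0543 and 0.408. The summed fibroblast markers were lower in the same libraries, at 244, 211 and 211 in Mc4r KO mice against 262, 266 and 280 in WT mice. Their most abundant gene Dcn was at 87.0, 77.1 and 83.0 against 125, 124 and 109, and the part of these cells in the Acsl4 values was not tested. Of the 12 fibroblast markers 7 had a negative and 5 a positive fold change, with 4 lower at an unadjusted p under 0.05 (8.83% of all genes were lower), and without WT replicate 3 their median moved from -0.31 to -0.07.

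A stretch with the form of the iron-responsive element was found in 4 of the 10 genes, Tfrc, Fth1, Ftl1 and Slc40a1. It was searched in the UTRs of the GENCODE M21 transcripts as an unpaired C, a stem of 5 base pairs and the loop CAGTGN, and the stretches are shown because their place in the messenger RNA separates the uptake gene from the storage and export genes. Such a stretch was found in 0.148% of 20916 genes with a 5′ UTR and in 0.613% of 21045 genes with a 3′ UTR, and a match is a description of sequence, not proof of binding. In the sequences below (GRCm38, 30 bases each, 5′ to 3′ on the strand of the gene) the capitals mark the loop. Fth1, Ftl1 and Slc40a1 held 1 each in the 5′ UTR, and Tfrc held 4 in the 3′ UTR.
Fth1, 5′ UTR, chr19:9982731-9982760, plus strand: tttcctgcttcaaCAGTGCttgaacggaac
Ftl1, 5′ UTR, chr7:45459779-45459808, minus strand: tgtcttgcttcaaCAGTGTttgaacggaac
Slc40a1, 5′ UTR, chr1:45925465-45925494, minus strand: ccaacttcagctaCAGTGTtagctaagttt
Tfrc, 3′ UTR, chr16:32631218-32631247, plus strand: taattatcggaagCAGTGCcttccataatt
Tfrc, 3′ UTR, chr16:32631597-32631626, plus strand: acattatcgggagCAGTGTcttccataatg
Tfrc, 3′ UTR, chr16:32631662-32631691, plus strand: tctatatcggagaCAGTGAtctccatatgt
Tfrc, 3′ UTR, chr16:32631709-32631738, plus strand: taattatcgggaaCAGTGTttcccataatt

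As background, binding in the 3′ UTR keeps the Tfrc messenger RNA from decay, so its level follows iron shortage, whereas binding in the 5′ UTR blocks translation and leaves the messenger RNA of the ferritins and of ferroportin in place. RNA-seq reads the former kind of control and not the latter.

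Tfrc encodes the transferrin receptor and lies on chromosome 16 from 32608920 to 32632794 on the plus strand. Its FPKM was 8.92, 4.91 and 12.96 in WT hearts. In Mc4r KO hearts it was 17.2, 30.5 and 11.4. Of the 9 tested genes it had the largest SD relative to its mean in each genotype. WT replicate 3 lay above Mc4r KO replicate 3, so the groups overlapped, and Mc4r KO replicate 2 was the highest and WT replicate 2 the lowest of the 6 libraries. The log2 fold change was 1.12 ± 0.43 (SE, p = 0.0354, adjusted p = 0.208, exact permutation p = 0.2). Over the alternatives it was between 0.67 and 1.46 with adjusted p of 0.0944 or above, and it was 0.75 both without WT replicate 2 and without Mc4r KO replicate 2. Red cell precursors also carry transferrin receptor. The precursor gene Klf1 had 1, 4 and 7 reads in WT hearts and 0 in each Mc4r KO heart. It was chosen after its values were seen. Tfrc had 436 to 2870 reads. Of the 12 erythroid markers tested, 2 had a positive and 10 a negative fold change, with a median of -1.42. At an unadjusted p under 0.05, 1 was higher and 5 lower (20.9% of all genes stood there). Without WT replicate 3 the counts were 1 and 2 (against 28.2% of all genes), with a median of -0.67. The part of red cell precursors in the Tfrc values was not tested.

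Tfrc is also known as a target of the hypoxia-inducible factors, a pathway named by the study. The core of the hypoxia response element, ACGTG on either strand, was searched in the RefSeq promoters (GRCm38.p6, 250 bases before to 50 bases after a start site), which held 8 of the 10 genes in 15 windows. It was present in 19.6% of 32851 promoters. Among the 8 genes, Tfrc and Ncoa4 held it. The site of Tfrc, shown because Tfrc had the largest fold change here, lay 2 and 228 bases before its 2 start sites, and the capitals mark the core. The core of the antioxidant response element, TGACNNNGC, was present in 12.4% of the promoters and in 1 window of Ncoa4 among the 8 genes. Slc40a1 and Hmox1 had no promoter in that set, so neither core was searched in them.
Tfrc, chr16:32608882-32608911, plus strand: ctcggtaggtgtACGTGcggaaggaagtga

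Ferritin stores iron in a shell of heavy and light chains, of which the heavy chain oxidises the iron that enters. Fth1, the heavy chain gene, lies on chromosome 19 from 9982703 to 9985092 on the plus strand. Its FPKM was 1334, 1334 and 1309 in WT hearts and 1422, 1428 and 1409 in Mc4r KO hearts. The groups did not overlap, with SDs of 14.6 and 9.90, yet the difference was small, with a log2 fold change of 0.10 ± 0.11 (SE, adjusted p = 0.652). The SE is wider than these SDs because limma draws it toward that of other genes of similar level. It was -0.10 under the outside-mitochondrial scaling. Ftl1, the light chain gene on chromosome 7 from 45457944 to 45459884 on the minus strand, was at 88.3, 78.1 and 90.9 in WT hearts and 89.3, 68.8 and 66.5 in Mc4r KO hearts. Mc4r KO replicate 1 lay among the WT libraries and the other 2 below them, and the log2 fold change was -0.21 ± 0.13 (SE, adjusted p = 0.421). It was -0.40 under the outside-mitochondrial scaling (adjusted p = 0.172), -0.34 without Mc4r KO replicate 1 and -0.13 without Mc4r KO replicate 3. Of its 50-base words 50.9% occurred in 15 other genes, ferritin pseudogenes among them, which took between 20 and 47 reads in all, and 26.5% of its exons lie under exons on the opposite strand. The level of Ftl1 is therefore uncertain.

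The ratio of Fth1 to Ftl1 messenger RNA was 15.1, 17.1 and 14.4 in WT hearts and 15.9, 20.8 and 21.2 in Mc4r KO hearts. Mc4r KO replicate 1 fell within the WT range, and the difference of 0.30 on the log2 scale gave an exact permutation p of 0.2 (adjusted p = 0.2).

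Ncoa4, the receptor that carries ferritin to the lysosome, lies on chromosome 14 from 32159865 to 32179855 on the plus strand. It was at 5.13, 4.81 and 4.85 in WT hearts and 4.004, 4.99 and 5.54 in Mc4r KO hearts, which spread to both sides of the WT range. The log2 fold change was -0.04 ± 0.13 (SE, adjusted p = 0.907). It was 0.09 without Mc4r KO replicate 1, 0.0015 with voom and -0.23 under the outside-mitochondrial scaling. Gm6768 holds 17.9% of its 50-base words and took 115 to 176 reads, against 582 to 833 on Ncoa4.

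Slc40a1 encodes ferroportin, the iron exporter that hepcidin removes from the membrane, and lies on chromosome 1 from 45908068 to 45926523 on the minus strand. It was at 3.19, 3.57 and 3.504 in WT hearts and 2.38, 2.25 and 3.74 in Mc4r KO hearts. Mc4r KO replicates 1 and 2 were below all WT libraries and Mc4r KO replicate 3 was above them, and the log2 fold change was -0.32 ± 0.20 (SE, adjusted p = 0.403). Without Mc4r KO replicate 3 it was -0.55, the largest shift from leaving out 1 library, and under the outside-mitochondrial scaling -0.51 (adjusted p = 0.187).

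Hmox1, heme oxygenase 1, frees iron from heme and is induced by NRF2. It lies on chromosome 8 from 75093621 to 75100589 on the plus strand. It was at 4.50, 6.12 and 6.30 in WT hearts and 6.03, 4.25 and 5.52 in Mc4r KO hearts, with 111 to 188 reads in each. The ranges were nearly the same, the log2 fold change was -0.10 ± 0.18 (SE, adjusted p = 0.801), and it was 0.05 without Mc4r KO replicate 2 and -0.29 under the outside-mitochondrial scaling. Slc40a1 and Hmox1 are abundant in macrophages that recycle red cells. The 20 macrophage markers summed to 256, 225 and 351 in WT hearts and 353, 298 and 279 in Mc4r KO hearts, with Lyz2 as the most abundant, and the sums overlapped. Single markers went both ways, with 3 of 19 tested (Cd68, Csf1r and Mrc1) lower and 1 (Cd14) higher at an unadjusted p under 0.05 (21.1%, near the 20.9% of all genes). Without WT replicate 3 the counts were 0 lower and 5 higher, and the part of macrophages in the values of Slc40a1 and Hmox1 was not tested.

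The other genes of these pathways were grouped in 9 lists that do not hold the 10 genes. Of their 211 genes 197 were tested, 61 of them (31.0%) had an unadjusted p under 0.05, against 20.9% of all genes, with 49 on the higher and 12 on the lower side, and 1 was called. The median log2 fold change over the lists was 0.08. The count under the outside-mitochondrial scaling was 53 of 197 (26.9%), 17 higher and 36 lower, a median of -0.12 and 0 calls. All genes shifted in the same way under it, to a share of 23.1% with 892 higher and 3266 lower and a median of -0.19, and the counts of each list under this scaling stand against these. With the GC covariate there were 19 higher and 13 lower among the list genes. The share of all genes, beside which the counts of a list are read, was 28.2% without WT replicate 3, 14.5% without WT replicate 1 and 15.9% without WT replicate 2. It was 16.3%, 13.9% and 15.7% without Mc4r KO replicates 1, 2 and 3, and 11.3% with the GC covariate. Without WT replicate 3 the calls numbered 9, and 0 where another library was left out instead.

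**Figure D4:**
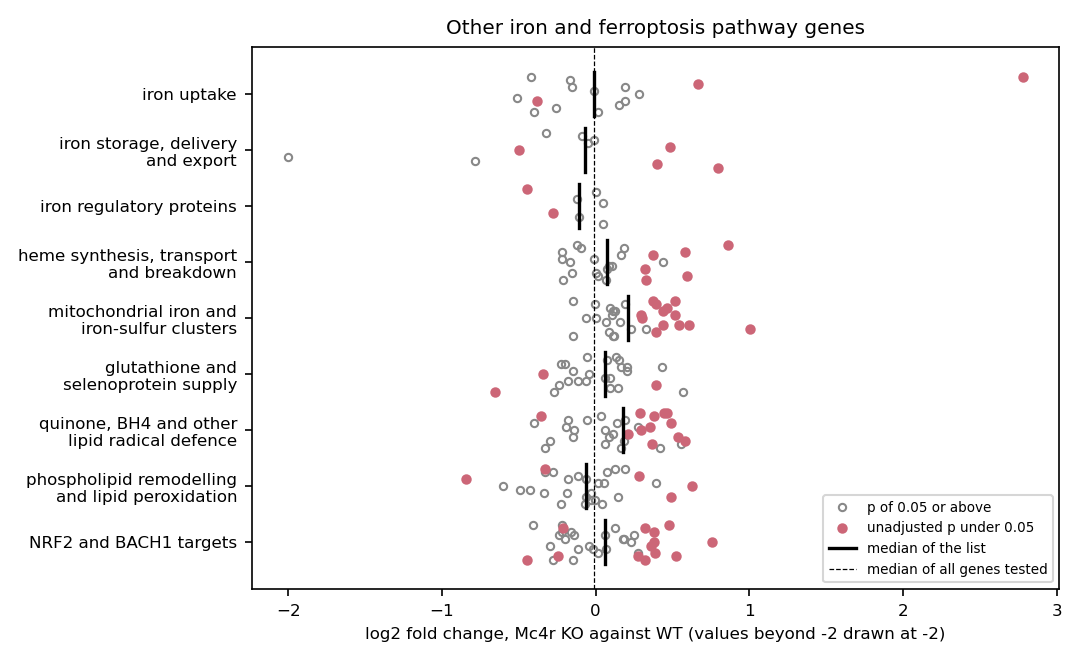
Log2 fold change in Mc4r KO against WT mice of each tested gene of 9 lists, with 1 point per gene, filled where the unadjusted p was under 0.05, a bar at the median of each list and a dashed line at the median of all genes. The medians run from -0.11 for the iron regulatory proteins to 0.21 for mitochondrial iron and iron-sulfur clusters, and the point far to the right is Lcn2 at 2.78.

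The called gene was Lcn2, in the list of iron uptake. It encodes lipocalin 2, a secreted protein that binds bacterial iron carriers and is also stored in neutrophil granules. Its FPKM was 0.270, 0.557 and 1.01 in WT hearts and 2.90, 4.62 and 6.06 in Mc4r KO hearts, without overlap, and the log2 fold change was 2.78 ± 0.43 (SE, adjusted p = 0.0495). The neutrophil and lymphocyte markers summed to 9.83, 3.07 and 19.0 in WT hearts and to 5.38, 2.88 and 2.57 in Mc4r KO hearts. The part of these cells in the Lcn2 values was not tested. Of the 15 genes tested in this list, 2 stood on the higher and 1 on the lower side at an unadjusted p under 0.05. That share (20%) was near the 20.9% of all genes. The counts were 4 and 2 without WT replicate 3, and 2 and 4 with the GC covariate. Slc39a14, a transporter of iron that is not bound to transferrin, was at 4.77, 5.02 and 5.03 in WT hearts and 6.82, 8.80 and 8.16 in Mc4r KO hearts (log2 fold change 0.66, adjusted p = 0.0579). Steap4, a ferrireductase, was at 17.1 ± 2.95 in WT and 13.03 ± 1.502 in Mc4r KO mice (SD, n = 3 each; log2 fold change -0.38, adjusted p = 0.211).

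In the list of iron storage, delivery and export, 3 of 10 tested genes stood on the higher and 1 on the lower side (40.0%, against 20.9% of all genes). The median was -0.07. Bmp6, the ligand that raises hepcidin in the liver when iron is plentiful, was at 7.84, 8.80 and 10.5 in WT hearts and at 17.0, 14.5 and 15.7 in Mc4r KO hearts, with a log2 fold change of 0.80 ± 0.13 (SE) and an adjusted p of 0.0529. Hfe2, which encodes its coreceptor hemojuvelin, was at 85.9, 92.0 and 109 against 125, 140 and 135 (log2 fold change 0.49, adjusted p = 0.0919). Neo1, the hemojuvelin receptor neogenin, was at 10.1 ± 1.13 against 7.14 ± 0.672 (log2 fold change -0.50, adjusted p = 0.0992). The groups did not overlap for any of these 3 genes. Hamp, which encodes hepcidin and was looked at after its values were seen, had 172 reads in WT replicate 3 and at most 3 in the other 5 libraries, and the atrial genes Nppa, Myl7 and Bmp10 were highest in that library too.

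Among the 7 iron regulatory genes 2 stood on the lower side and 0 on the higher (28.6%, against 20.9% of all genes). It was 0 and 0 with the GC covariate, with a median of 0.11 in place of -0.11. The count was 1 on the lower side (14.3%) without WT replicate 1, WT replicate 2, Mc4r KO replicate 1 or Mc4r KO replicate 3. The share of all genes in these fits was 14.5%, 15.9%, 16.3% and 15.7%, in that order. Fbxl5, the iron-sensing subunit of the ligase that removes IRP2, was at 5.91, 6.05 and 4.95 in WT hearts and 4.26, 3.72 and 4.35 in Mc4r KO hearts (log2 fold change -0.44, adjusted p = 0.116). Cul1, the scaffold of that ligase, was at 21.1 ± 1.86 against 17.4 ± 0.467 (log2 fold change -0.28, adjusted p = 0.156). Ireb2, which encodes IRP2 itself, was at 5.08 ± 0.768 against 4.67 ± 0.0233 with overlap (log2 fold change -0.11, adjusted p = 0.652).

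The list of mitochondrial iron and iron-sulfur clusters held 13 of 30 tested genes (43.3%) at an unadjusted p under 0.05, all of them higher. Of all genes, 20.9% stood there, 12.0% on the higher side. Under the outside-mitochondrial scaling the share was 23.3% against 23.1% of all genes, and with the GC covariate 6 of 30, all higher, against 11.3%. Of the 30, 26 had a positive fold change, and the median was 0.21. Under the outside-mitochondrial scaling the median was 0.02, 15 were positive and 6 stood on the higher and 1 on the lower side. Ciapin1, an early factor of cytosolic iron-sulfur assembly, was at 3.70, 3.56 and 5.14 in WT hearts and 7.70, 9.10 and 8.05 in Mc4r KO hearts, a fold of 2.001 (log2 fold change 1.001 ± 0.16 SE, adjusted p = 0.0514). Bola1, a mitochondrial cluster factor, was at 8.26, 9.59 and 10.4 against 14.0, 13.4 and 13.7 (log2 fold change 0.54, adjusted p = 0.0667). Fdx1, a mitochondrial ferredoxin, was at 13.6 ± 0.910 against 18.8 ± 2.06 (log2 fold change 0.46, adjusted p = 0.0927).

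Of the 23 tested genes of heme synthesis, transport and breakdown, 6 stood on the higher side and 0 on the lower (26.1%, against 20.9% of all genes), but 3 and 4 under the outside-mitochondrial scaling, with medians of 0.07 and -0.12. The counts were 8 and 2 without WT replicate 3, 4 and 0 without Mc4r KO replicate 3, and 2 and 1 with the GC covariate. Alas1, the rate-limiting enzyme of heme synthesis outside red cells, was at 21.01, 19.02 and 25.5 in WT hearts and 36.8, 49.3 and 34.0 in Mc4r KO hearts, a fold of 1.82 (adjusted p = 0.07). Each Mc4r KO library was above each WT library. Tmem14c, a mitochondrial porphyrin transporter, was at 58.8 ± 9.61 against 87.2 ± 6.06 (log2 fold change 0.58, adjusted p = 0.0871). Hmox2, the constitutive heme oxygenase, was at 13.6 ± 0.545 against 17.1 ± 1.05 (log2 fold change 0.32, adjusted p = 0.108).

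The defence against lipid radicals was covered by 2 lists. Of 32 tested genes of the quinone, tetrahydrobiopterin and related defences, the arm of Aifm2, 11 stood on the higher and 1 on the lower side (37.5%, against 20.9% of all genes), and the median was 0.17. The counts fell to 5 and 2 without WT replicate 1 (21.9%, against 14.5% of all genes). They were 5 and 1 without Mc4r KO replicate 2 (18.8%, against 13.9%). Without Mc4r KO replicate 1 they were 7 and 1 (25.0%, against 16.3%), and with the GC covariate 4 and 1 (15.6%, against 11.3%). Under the outside-mitochondrial scaling 2 stood on the higher and 6 on the lower side, with a median of -0.02. Prdx6, which reduces phospholipid hydroperoxides, was at 29.02, 30.96 and 31.3 in WT hearts and 38.5, 46.2 and 43.8 in Mc4r KO hearts (log2 fold change 0.49, adjusted p = 0.0666). Coq7, a hydroxylase of coenzyme Q synthesis, was at 9.28 ± 0.353 against 12.0 ± 0.807 (log2 fold change 0.37, adjusted p = 0.0996). Sqor, which reduces coenzyme Q with sulfide, was lower at 8.09 ± 0.326 in Mc4r KO against 10.4 ± 0.267 in WT mice (log2 fold change -0.36, adjusted p = 0.0927).

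Of 25 tested genes of glutathione and selenoprotein supply, the arm of Gpx4, 1 stood on the higher and 2 on the lower side (12.0%, against 20.9% of all genes). Under the outside-mitochondrial scaling it was 0 and 8 (32.0%, against 23.1% of all genes). The balance turned to 4 higher and 1 lower (20%) without WT replicate 3, and it was 3 and 3 (24%) without WT replicate 2. Mgst3, a membrane glutathione transferase, was at 131 ± 15.4 in WT and 171 ± 3.40 in Mc4r KO mice (log2 fold change 0.39, adjusted p = 0.111). Slc38a1, a glutamine importer, was at 0.830 ± 0.137 against 0.497 ± 0.130 (log2 fold change -0.65, adjusted p = 0.202). The difference between these 2 lists was not tested.

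Of 29 tested genes of phospholipid remodelling and lipid peroxidation, the setting of Acsl4, 3 stood on the higher and 2 on the lower side (17.2%, against 20.9% of all genes), and the median was -0.06. Without WT replicate 2 there were 2 and 4, without Mc4r KO replicate 2 there were 1 and 1, and with the GC covariate 1 and 3. These counts were 1 and 7 under the outside-mitochondrial scaling, with a median of -0.25. Acsl3, which activates monounsaturated fatty acids, was at 1.498, 1.21 and 1.11 in WT hearts and 0.562, 0.483 and 1.03 in Mc4r KO hearts, with a log2 fold change of -0.85 ± 0.28 (SE) and an adjusted p of 0.157. Mc4r KO replicate 3 lay just under the lowest WT library. Pebp1, a partner of the 15-lipoxygenase, was at 56.3, 63.5 and 86.0 against 124, 94.8 and 96.0 (log2 fold change 0.62, adjusted p = 0.125). Far1, an enzyme of ether lipid synthesis, was at 3.68 ± 0.256 against 2.90 ± 0.121 (log2 fold change -0.33, adjusted p = 0.149).

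Of 35 tested targets of NRF2 and BACH1, the factors that switch Hmox1, 10 stood on the higher and 3 on the lower side (37.1%, against 20.9% of all genes). There were 11 and 7 (51.4%) without WT replicate 3, 6 and 1 without WT replicate 2 or without Mc4r KO replicate 2, and 3 and 2 with the GC covariate. Under the outside-mitochondrial scaling 1 stood on the higher and 9 on the lower side. Nfe2l2, which encodes NRF2, was at 22.6, 23.0 and 19.4 in WT hearts and 15.7, 16.1 and 15.6 in Mc4r KO hearts, without overlap (log2 fold change -0.45, adjusted p = 0.0766). Gsta4, which clears 4-hydroxynonenal, was at 41.7, 43.9 and 41.7 against 56.7, 55.3 and 54.4 (log2 fold change 0.39, adjusted p = 0.0663). Pgd, an enzyme of the pentose phosphate pathway, was at 3.66 ± 0.507 against 5.11 ± 0.458 (log2 fold change 0.48, adjusted p = 0.121).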

How the data were processed

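Polyadenylated RNA of 6 mouse hearts was sequenced in paired ends. The submitters' processing notes name HISAT2 2.0.5 and mm10, the study's methods also featureCounts, and the authors deposited FPKM per gene and library. The annotation release is not given in the sources used here; 99.93% of the gene identifiers are in GENCODE M21 (GRCm38), and 98.33% of 54495 shared ones have the same start and end there. Multiplied by gene length, 100% of the FPKM came out as whole reads (tolerance 0.01 reads), which gave the depth. No column of values was left without a library.

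Because the deposited unit is FPKM, limma 3.58.1 (R 4.3.3) was fitted to log2(FPKM + 0.1) of all 6 libraries with the empirical Bayes trend and no covariate, over the 18035 genes whose mean FPKM reached 0.1. Changes of weakly expressed genes are understated on this scale. Tests are two-sided with Benjamini-Hochberg adjustment over all genes tested. The thresholds are those of the study's methods, whose fold threshold was read as log2. A figure legend of the study names a fold of 1.5 instead, which was added as an alternative after seeing the data. The script was tested on simulated data with an assumed spread. There, 57 of 100 genes with a log2 fold change of 1 in size were called, and 98 of 100 with 2. A gene that was not called may therefore still differ. Floors of 3 reads cover counting error only.

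The genes and lists were chosen with earlier results of these data known. Of each pathway list, the genes called and the 3 with the smallest p are named; of each marker list, the most abundant gene; and the 5 genes most correlated with Aifm2. Genes that this rule names but the text omits are not reported here. Slc3a2, Klf1, Cd68, Csf1r, Mrc1, Cd14, Myl7, Bmp10 and Hamp, and the genes called under other settings, were chosen after their values were seen. Sequences are from GENCODE M21 transcripts and RefSeq promoters. As alternatives, the pseudocount was set to 1 or 0.01, the filter on the mean FPKM was dropped or raised to 1, the libraries were quantile-normalized or scaled outside the mitochondrial chromosome, and limma was run with no trend, with robust variances, with array weights, with the replicate number as block, with the GC share of the clean reads as the study lists it, as voom on recovered reads (mean of at least 10), on protein-coding genes, and leaving out each library. Plots were made in matplotlib 3.10.9 under Python 3.11.15.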

Additional observations from a re-analysis of the deposited data

How the results depend on the processing

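Aifm2, Acsl4, Tfrc, Ftl1 and Slc40a1 kept their direction in all 19 alternatives. Of the 10 genes, 0 were called in the main analysis and 1, Aifm2, with array weights, with voom and without WT replicate 3 (leaving out 1 library, 0 to 1). Aifm2 reached an adjusted p under 0.05 over genes whose mean FPKM reached 1 and over protein-coding genes alone, with a log2 fold change of 0.747 that fell short of the fold threshold, and also with array weights (0.76) and voom (0.79), and its log2 fold change was 0.65 to 0.85 when 1 library was left out. Signs turned for Gpx4 (-0.16 after quantile normalization, -0.13 when scaled outside the mitochondrial chromosome, where all genes shifted by -0.18), Fth1 (-0.10 with that scaling) and Ncoa4 (0.0015 with voom). Leaving out 1 library gave -0.0039 to 0.12 for Gpx4, -0.14 to 0.09 for Ncoa4 (0.0916 without Mc4r KO replicate 1) and -0.25 to 0.05 for Hmox1 (0.0477 without Mc4r KO replicate 2). The cause of these turns was not tested.

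Across all genes 83 were called, of which 68.7% were higher. There were 44 with a pseudocount of 1, 22 without a filter, 147 over genes whose mean FPKM reached 1, 49 after quantile normalization (61.2% higher), 41 when scaled outside the mitochondrial chromosome (39.0% higher), 21 without trend, 435 with array weights, 1 with the GC percentage as covariate (2042 genes at an unadjusted p under 0.05), 222 with voom and 204 over protein-coding genes. Leaving out 1 library gave 7 to 726, with 726 without WT replicate 3 and at most 14 without any other. WT replicate 3 was the WT library most like the Mc4r KO libraries. The GC percentage separated the groups, so its effect on the calls cannot be told apart from that of genotype. With a fold threshold of 1.5, chosen after seeing the data, 103 genes were called, 0 of the 10 and 1 of the lists. With that threshold Aifm2 would pass in the 5 alternatives where its adjusted p was under 0.05. Of the pathway lists 1 gene was called, and 0 with either pseudocount, without a filter, after quantile normalization, when scaled outside the mitochondrial chromosome, without trend and with the GC covariate. There were 2 with robust empirical Bayes (Bmp6 and Ciapin1) and 4 (Alas1, Bmp6, Ciapin1 and Lcn2) over genes whose mean FPKM reached 1, with array weights, with voom and over protein-coding genes. Leaving out 1 library gave 0 to 9. The 9 genes called without WT replicate 3 were Alas1, Bmp6, Cbr3, Chmp6, Ciapin1, Glrx5, Lcn2, Pebp1 and Spr.

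The replicate block left 11 calls across all genes, 0 among the 10 genes and 1 in the lists. Samples with the same number correlated at -0.06, -0.01 and -0.05 in their deviations from the group means. Samples with different numbers correlated between -0.015 and 0.062. With all values this near 0, they cannot show whether mice with the same number were matched by litter or by processing. Both ratios kept their direction in all 7 alternatives. At this depth Slc7a11 could not be measured.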
